A study of Mus musculus with 4 samples.

Results

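The genes described here encode the subunits of 2 families of glutamate-gated ion channels, the kainate receptors (Grik1 to Grik5) and the NMDA receptors (Grin1 and Grin2a to Grin2d). They were chosen by name, and all 10 were found among the 25393 genes of the expression table. The RNA-seq libraries came from primary astrocyte cultures of cortex and hippocampus of untreated C57BL/6 mice at postnatal day 1, 2 libraries labelled wild type (WT) and 2 labelled tet1-/- (KO), a constitutive knockout. By the sample labels, each isolation pooled 2 mice, the cells were cultured for about 7 days, purified by shaking at 260 rpm and collected 24 h later. Reads assigned to genes came to 18749610 and 22673555 in WT against 20702980 and 22403163 in the KO-labelled libraries.

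Glutamate opens both families directly, and calcium can enter through the open pore. A kainate receptor is a tetramer in which GluK1, GluK2 or GluK3 (Grik1 to Grik3) can form a working channel alone, whereas GluK4 and GluK5 (Grik4 and Grik5) bind the ligand with high affinity but need GluK1, GluK2 or GluK3 to form a channel. An NMDA receptor needs GluN1 (Grin1), which binds the co-agonist glycine or D-serine, together with GluN2 subunits (Grin2a to Grin2d), which bind glutamate. Both families are known mainly from the synapses of neurons, and astrocytes meet the same transmitter at the synapses they surround. In the study, WT and Tet1 KO astrocytes were compared to find genes that change with the loss of Tet1, an enzyme that oxidizes 5-methylcytosine in DNA, with attention to an AMPA receptor subunit, the third family of such channels.

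The libraries were first checked against their labels. Tet1 had 266 and 121 normalized counts in WT against 173 and 463 in the KO-labelled libraries, where a normalized count is the number of reads on a gene divided by the size factor of its library. The groups overlapped, and Tet1 was not lower in the KO-labelled libraries (log2 fold change 0.66, standard error 0.65, adjusted p = 0.691 from limma). These values did not show whether the labels match the genotypes, and the cause was not tested. Counts summed over a whole gene include any transcript that lacks the targeted region. Each direction below is therefore given by the label. Xist, the RNA that silences 1 X chromosome in female cells, had 8.54 and 0.92 normalized counts in WT against 2896 and 13367 in the KO-labelled libraries. The sum of 4 Y-linked genes was 3765 and 1909 in WT against 0 and 830 in the KO-labelled libraries. Xist and the Y-linked genes thus moved with the label, labelled KO replicate 2 held both, and in every comparison below the label cannot be told apart from sex. Of 10 astrocyte markers, all were detected, and their summed level per length was 1901 and 1773 FPKM in WT against 3028 and 477 in the KO-labelled libraries, with Gfap the most abundant. The 2 libraries labelled KO thus stood further apart in this sum than the WT libraries. Gfap weighed heavily in it, at 687 and 765 FPKM in WT against 1871 and 117 in the KO-labelled libraries. Of the 10 markers, 5 were lower and 1 was higher in both KO-labelled libraries than in both WT libraries. Over all 22094 genes tested, these shares were 25.4% and 22.5%. In bulk RNA, fewer cells of a type and less RNA per cell cannot be told apart.

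The upstream sequences of 3 kainate genes are shown. They were picked after their values were seen, with Grik3 and Grik4 lower in both KO-labelled libraries and Grik5 overlapping between the labels. Each sequence is the 250 bases before the RefSeq start of the gene on GRCm38.p6, written 5′ to 3′ on the strand of the gene, with every GGGCGG or its complement CCGCCC (the GC box, searched on both strands) in capitals.
Grik3: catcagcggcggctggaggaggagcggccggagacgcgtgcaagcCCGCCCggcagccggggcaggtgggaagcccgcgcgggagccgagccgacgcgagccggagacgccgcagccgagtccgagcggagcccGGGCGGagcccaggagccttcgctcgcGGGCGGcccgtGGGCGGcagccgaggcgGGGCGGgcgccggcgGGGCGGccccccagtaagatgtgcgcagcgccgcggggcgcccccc
Grik4: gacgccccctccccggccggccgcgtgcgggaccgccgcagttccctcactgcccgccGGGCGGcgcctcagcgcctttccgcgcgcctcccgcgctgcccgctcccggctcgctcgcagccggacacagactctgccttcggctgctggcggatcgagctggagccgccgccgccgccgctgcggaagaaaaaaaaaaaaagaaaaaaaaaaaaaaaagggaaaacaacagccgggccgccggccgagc
Grik5: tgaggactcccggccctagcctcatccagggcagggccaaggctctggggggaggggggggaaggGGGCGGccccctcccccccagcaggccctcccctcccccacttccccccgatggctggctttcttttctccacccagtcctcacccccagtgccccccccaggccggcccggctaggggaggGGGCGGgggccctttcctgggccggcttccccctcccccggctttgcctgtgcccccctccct
These lie at chr4:125490446-125490695 on the plus strand for Grik3, at chr9:42944372-42944621 on the minus strand for Grik4 and at chr7:25072370-25072619 on the minus strand for Grik5. The windows of Grik3 and Grik4 were rich in CG dinucleotides. Grik3 had 42 CG dinucleotides in 82.0% GC, and its ratio of observed to expected CG was 1.01, above 94.9% of 32851 RefSeq windows of the same length. Grik4 had 36 in 69.6% GC, with a ratio of 1.21, above 99.5% of windows. Grik5 had only 8 in 75.2% GC, with a ratio of 0.23, above 34.7% of windows. Its GC content thus lay between those of Grik3 and Grik4, but its window held few CG dinucleotides. The GC box occurred 6 times in the window of Grik3, 1 time in that of Grik4 and 2 times in that of Grik5, and 32.7% of all windows held at least 1. None of the 3 windows held TATAAA (12.4% of all windows), TGACGTCA (1.55%) or TTCAGCACC, a piece of the RE1 element (0.3%). Windows were found for 7 of the 10 genes. In the windows of Grik2, Grin1, Grin2c and Grin2d, the ratio of observed to expected CG was 0.82, 1.26, 0.54 and 0.76, above 82.3%, 99.8%, 61.8% and 78.2% of windows. The highest ratio was that of Grin1, and the values of all 7 genes are given below. The RefSeq starts differ from the starts listed in the table for some genes, so that the windows of Grik4 and Grik2 run partly into the gene as listed and that of Grin2d lies inside it. DNA methylation was not measured in these libraries, and whether CG content goes with a difference between the labels was not tested.

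**Figure D1:**
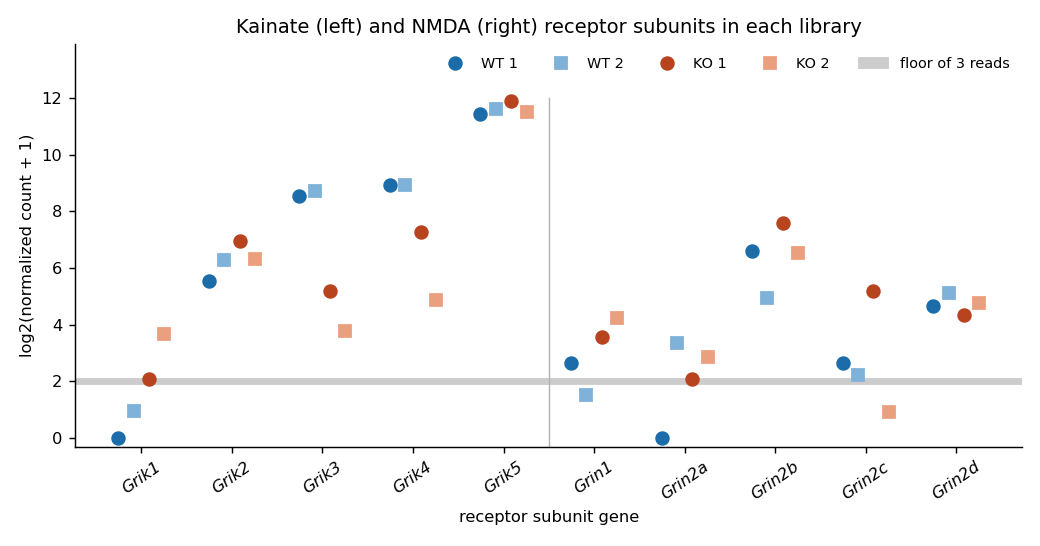
Level of each subunit gene as log2(normalized count + 1) in the 2 WT libraries (blue) and the 2 libraries labelled KO (red and light red), replicate 1 as circles and replicate 2 as squares, with the grey band at the 3-read floor of 2.70 to 3.21 normalized counts. Grik3 and Grik4 are the genes in which both KO-labelled libraries lie below both WT libraries, and Grik5 lies far above the other genes in every library.

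Kainate receptor genes were the more abundant family, and most of their signal came from Grik5. Levels between genes were compared as FPKM (reads scaled by the length of the gene and by the reads on all genes). Grik5 had a level of 27.0 and 29.1 FPKM in WT against 33.3 and 28.0 in the KO-labelled libraries. Its mean level lay above 92.6% of the listed genes. In WT the order of mean levels was Grik5, Grik4, Grik3, Grik2, Grin2d, Grin2b, Grin2c, Grin1, Grin2a and Grik1. The levels of Grik5, Grik4 and Grik3 did not overlap with those of their neighbours in this order, nor did Grin2b with Grin2c or Grin2c with Grin1. Grik2, Grin2d and Grin2b could not be ordered, because they overlapped. Grin2a overlapped with both Grin1 and Grik1. Grin1 (0.0275 and 0.00909 FPKM) was above Grik1 (0 and 0.00656) in both WT libraries without overlap, on few reads. In the KO-labelled libraries the order was Grik5, Grik4, Grik2, Grin2b, Grin2c, Grin2d, Grik3, Grin1, Grik1 and Grin2a. There, apart from Grik5 above Grik4 and Grik1 above Grin2a, every gene overlapped with the next. Both KO-labelled libraries of Grik3 (0.178 and 0.0696 FPKM) were below both of Grik4, Grik2 and Grin2b, and above both of Grin2a. Grik3 overlapped with Grin2c, Grin2d, Grin1 and Grik1 and could not be ordered among these. The level of the other genes was low, with mean FPKM of 1.13 for Grik3 and 2.33 for Grik4 over the 4 libraries and under 1 for Grik1, Grik2 and all NMDA genes.

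Between the labels, 3 of the 10 genes had an unadjusted p under 0.05 in limma, Grik3 and Grik4 lower and Grik1 higher in the KO-labelled libraries. All 10 passed the minimum mean of 1 normalized count. Grik1 passed it only through the KO-labelled libraries (mean 7.46 normalized counts, against 0.46 in WT), so its call gives no support for a change. Over the 22094 genes tested, 13.7% were called by the same rule, 9.18% lower and 4.54% higher, so that the share of subunit genes called is to be read against that background. With Benjamini-Hochberg adjustment over all genes tested, 0 of the 10 genes and 0 of all genes had an adjusted p under 0.05 in limma, where 3032 genes had an unadjusted p under 0.05. edgeR also called 0 genes after adjustment (2733 at an unadjusted p under 0.05, Grik3 and Grik4 among them). DESeq2 called Grik3 and Grik4 as lower, with 4.92% of all genes called at an adjusted p under 0.05, 3.63% as lower and 1.29% as higher. In 5 of the 10 genes the libraries of one label did not overlap with those of the other, against 47.9% of all genes tested. With 2 libraries per label the smallest two-sided p of an exact permutation test is 0.333, which is the p of each of these 5 genes. The median log2 fold change was 0.66 over the 10 genes, 0.18 over the 5 kainate genes and 0.80 over the 5 NMDA genes (the value of Grin2a, which had 10 or fewer reads in each library), beside -0.07 over all genes tested. The median over the 10 genes was 0.19 to 0.71 with each library left out, and 0.39 when a mean of at least 5 was required. The labels do not say whether the libraries of a group came from separate cultures, while the study speaks of biological repeats and the KO-labelled libraries differed in their Y-linked genes. The p-values measure the spread between these libraries.

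Grik3, which encodes GluK3, a channel-forming subunit of low affinity for glutamate, had the largest log2 fold change of the 10 genes on the log2(normalized count + 1) scale, although Grik1, with few reads, had a larger one (4.29 against -4.21) with a pseudocount of 0.1. Grik3 had 369 and 417 normalized counts in WT against 35.3 and 12.6 in the KO-labelled libraries, that is 393 ± 33.5 against 24.0 ± 16.1 (SD, n = 2). Both KO-labelled libraries were below both WT libraries, and the lower WT library was 10.5-fold above the higher library labelled KO. The log2 fold change was -4.14 (standard error 0.61, 95% interval -5.69 to -2.60), with an unadjusted p of 0.000798 and an adjusted p of 0.129 from limma. By p, Grik3 had rank 137 of the 22094 genes tested. The adjusted p was 9.28e-08 in DESeq2 (log2 fold change -4.05) and 0.146 in edgeR (-4.07). Omitting any 1 library left the log2 fold change between -4.85 and -3.44. Grik3 (ENSMUSG00000001985) is a plus-strand gene of chromosome 4, from 125490700 to 125714173 in GRCm38. The gene spans 223474 bases and overlaps 2 annotated genes on its own strand, a pseudogene and a microRNA gene, neither in its exons. Of the 50-base words of its transcripts, 0.448% occur in transcripts of other genes, so few reads could be shared with a similar gene.

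Grik4, which encodes GluK4, a high-affinity subunit, had 485 and 480 normalized counts in WT against 152 and 27.9 in the KO-labelled libraries. The means were 483 ± 3.86 in WT and 90.0 ± 87.7 in the KO-labelled libraries (SD, n = 2). Both KO-labelled libraries were below both WT libraries, but they differed 5.44-fold from each other, whereas the WT libraries differed 1.01-fold. The log2 fold change was -2.86 (standard error 0.82, 95% interval -4.92 to -0.80), with an unadjusted p of 0.0153 and an adjusted p of 0.267 from limma. The count tests on the reads differed in their calls, since the adjusted p was 0.0381 in DESeq2 (log2 fold change -2.43) but 0.344 in edgeR (-2.46). Leaving out WT replicate 1 gave a limma unadjusted p of 0.132 (adjusted p = 0.967), and leaving out WT replicate 2 gave 0.155 (adjusted p = 0.742), with log2 fold changes of -2.85 and -2.87. With 1 WT library the spread in this fit comes from the KO-labelled pair, and the lone library is assumed to vary like it. It was -4.06 without labelled KO replicate 1 and -1.66 without labelled KO replicate 2. Grik4 (ENSMUSG00000032017) lies on chromosome 9 from 42518135 to 42944493 on the minus strand, spans 426359 bases and overlaps 2 annotated RNA genes on its own strand, a microRNA gene and a gene of the class misc_RNA, the latter in an exon.

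Grik5, which encodes GluK5, the other high-affinity subunit, had 2787 and 3135 normalized counts in WT against 3818 and 2926 in the KO-labelled libraries. The groups overlapped, and limma estimated a log2 fold change of 0.18 (95% interval -0.57 to 0.92, standard error 0.30, adjusted p = 0.823). The interval leaves room for a change of nearly 1 on the log2 scale in the upward direction, and the test did not show that the levels were equal. Grik5 (ENSMUSG00000003378) lies on chromosome 7 from 25009849 to 25072346 on the minus strand and overlaps no annotated gene. Within each library, the level of Grik4 was 15.1% and 13.3% of that of Grik5 in WT against 3.45% and 0.828% in the KO-labelled libraries, as FPKM, with both KO-labelled libraries below both WT libraries.

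Grik2, which encodes GluK2, the channel-forming subunit most often paired with GluK5 in the brain, had 45.9 and 77.2 normalized counts in WT against 122 and 78.4 in the KO-labelled libraries. The groups did not overlap, but the lower library labelled KO was only 1.02-fold above the higher WT library. limma estimated a log2 fold change of 0.71 with a standard error of 0.54 and an adjusted p of 0.607, which did not exceed the spread between libraries. With each library left out the log2 fold change of Grik2 lay between 0.34 and 1.08. Grik1, which encodes GluK1, was near the detection floor of 3 reads. It had 0 and 1 reads in WT against 3 and 13 in the KO-labelled libraries, or 0 and 0.92 against 3.21 and 11.7 normalized counts. Both KO-labelled libraries were above both WT libraries, and the ratio of the 16 reads to the 1 read, allowing for the size factors, was 15.9 with a 95% exact counting interval of 2.46 to 665. The interval pools the reads of each label and covers counting error only. Since 13 of the 16 reads came from labelled KO replicate 2, it gives no support for a change. The limma fit gave a log2 fold change of 2.40 (standard error 0.92), with an unadjusted p of 0.0438 and an adjusted p of 0.358. The call at an unadjusted p under 0.05 was lost in edgeR (log2 fold change 3.62, adjusted p = 0.422). It was also lost in DESeq2 (log2 fold change 3.94), which gave no adjusted p for this gene. Nor was the call kept with a pseudocount of 0.1 (log2 fold change 4.29) or without WT replicate 1 (1.93), WT replicate 2 (2.87) or labelled KO replicate 2 (1.60). Grik2 (ENSMUSG00000056073) lies on chromosome 10 from 49094833 to 49788766 and Grik1 (ENSMUSG00000022935) on chromosome 16 from 87895900 to 88290265, both on the minus strand.

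**Figure D2:**
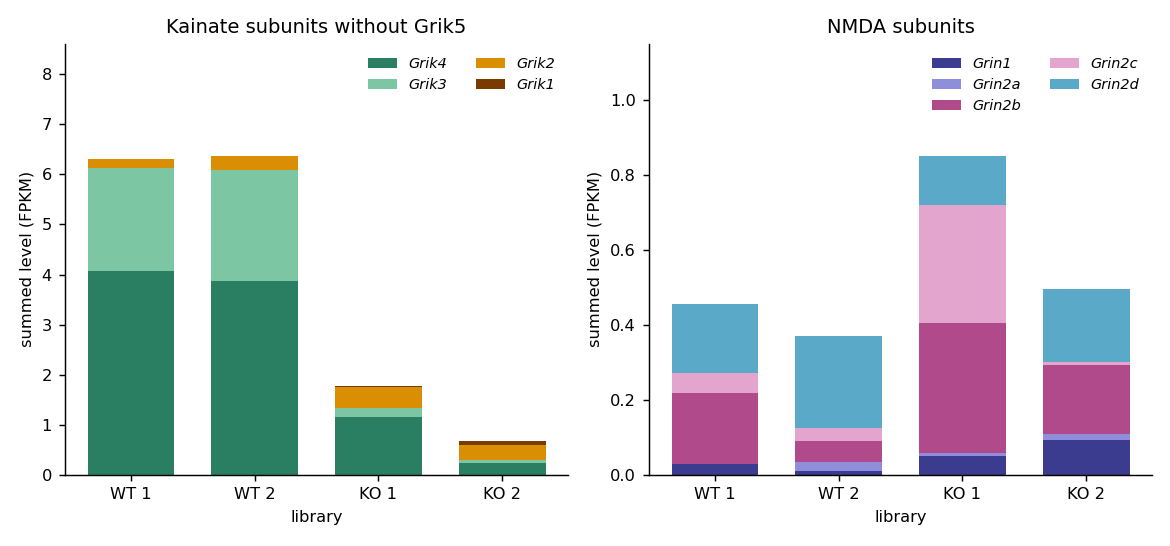
Summed level in FPKM of the kainate subunit genes without Grik5 (left) and of the NMDA subunit genes (right) in each library, with 1 colour per gene and separate vertical scales. The kainate sum without Grik5 is 6.30 and 6.37 in WT against 1.77 and 0.681 in the KO-labelled libraries, and the NMDA sum stays under 1 in every library.

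The channel-forming kainate genes changed places between the labels. The summed level of Grik1, Grik2 and Grik3 was 2.23 and 2.51 FPKM in WT against 0.615 and 0.449 in the KO-labelled libraries. Grik3 made up 92.2% and 88.6% of this sum in WT against 28.9% and 15.5% in the KO-labelled libraries, and Grik2 made up 7.77% and 11.1% in WT against 67.6% and 65.3% in the KO-labelled libraries. Grik3 was thus the main channel-forming kainate transcript in both WT libraries and Grik2 in both KO-labelled libraries. The difference in Grik2 itself was within the spread between libraries. The level of Grik5 was 12.1 and 11.6 times this sum in WT and 54.2 and 62.4 times in the KO-labelled libraries. Over all kainate genes together the summed level was 33.3 and 35.5 FPKM in WT against 35.1 and 28.7 in the KO-labelled libraries, and the share of Grik5 in it was 81.1% and 82.0% in WT against 95.0% and 97.6% in the KO-labelled libraries. No p is given for these sums, because their members were chosen with results of these data known.

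NMDA receptor genes were at low levels in all 4 libraries. Their summed level was 0.456 and 0.371 FPKM in WT against 0.851 and 0.496 in the KO-labelled libraries, and kainate genes exceeded them 73.0-fold and 95.7-fold in WT and 41.3-fold and 57.9-fold in the KO-labelled libraries. Over the 5 genes there were 122 and 85 reads in WT against 242 and 159 in the KO-labelled libraries. None of the 5 genes had an unadjusted p under 0.05.

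Grin1, which encodes the subunit that every NMDA receptor needs, had 5 and 2 reads in WT against 10 and 20 in the KO-labelled libraries, or 5.33 and 1.84 against 10.7 and 18.0 normalized counts. Both KO-labelled libraries were above both WT libraries, and the lower was 2.01-fold above the higher WT library. The log2 fold change was 1.82 (standard error 0.81, 95% interval -0.22 to 3.85), with an unadjusted p of 0.0708 and an adjusted p of 0.408 from limma. The mean level of 0.0446 FPKM lay above 14.0% of the listed genes. Grin1 (ENSMUSG00000026959, chromosome 2 from 25291181 to 25319187, minus strand) overlaps the antisense gene Grin1os in its exons, and since the strand setting of the counting is not given in the sources used here, reads of the 2 genes may not be separated.

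Grin2b, which encodes the GluN2 subunit that prevails before and around birth, had 95.0 and 29.4 normalized counts in WT against 191 and 91.9 in the KO-labelled libraries. The groups overlapped by a small margin, and the WT libraries differed 3.23-fold from each other (log2 fold change 1.30, standard error 0.74, adjusted p = 0.494 from limma). With each library left out the log2 fold change of Grin2b lay between 0.48 and 2.13. Grin2d, which encodes another early GluN2 subunit, had 24.5 and 34.0 in WT against 19.3 and 26.1 in the KO-labelled libraries. Its groups overlapped (log2 fold change -0.35, standard error 0.62, adjusted p = 0.832 from limma), and the sign turned under quantile normalization (0.22). Grin2c, which encodes the GluN2 subunit best known from cerebellar granule cells, had 5.33 and 3.68 in WT against 35.3 and 0.90 in the KO-labelled libraries. Here 1 library decided the value. The libraries labelled KO had 33 reads and 1 read, and the log2 fold change was 0.61 with all libraries, 2.74 (unadjusted p = 0.0238, adjusted p = 0.321 from limma) without labelled KO replicate 2 and -1.52 (unadjusted p = 0.104, adjusted p = 0.305 from limma) without labelled KO replicate 1. Grin2a, which encodes the GluN2 subunit that prevails in the adult forebrain, had 0 and 9.20 in WT against 3.21 and 6.31 in the KO-labelled libraries. Its groups overlapped, all 4 libraries had 10 or fewer reads, and the log2 fold change of 0.80 turned to -0.88 without WT replicate 1. Grin2b and Grin2d together made up most of the summed NMDA level in FPKM. The share of Grin2b was 41.9% and 15.3% in WT against 40.7% and 36.9% in the KO-labelled libraries, and that of Grin2d was 40.4% and 66.1% against 15.3% and 39.2%. In labelled KO replicate 1, Grin2c held 37.2%, more than Grin2d.

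The 4 GluN2 genes lie on the minus strand of GRCm38, Grin2a (ENSMUSG00000059003) on chromosome 16 from 9567898 to 9995560, Grin2b (ENSMUSG00000030209) on chromosome 6 from 135713233 to 136173511, Grin2c (ENSMUSG00000020734) on chromosome 11 from 115249169 to 115267243 and Grin2d (ENSMUSG00000002771) on chromosome 7 from 45831883 to 45878378. Grin2b, Grin2c and Grin2d each overlap at least 1 antisense gene in their exons, 3 in the case of Grin2b. The share of 50-base words found in transcripts of other genes, on either strand, was 11.6% for Grin2a, 8.24% for Grin1 and 7.57% for Grin2d, and under 1% for the other 7 genes.

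**Figure D3:**
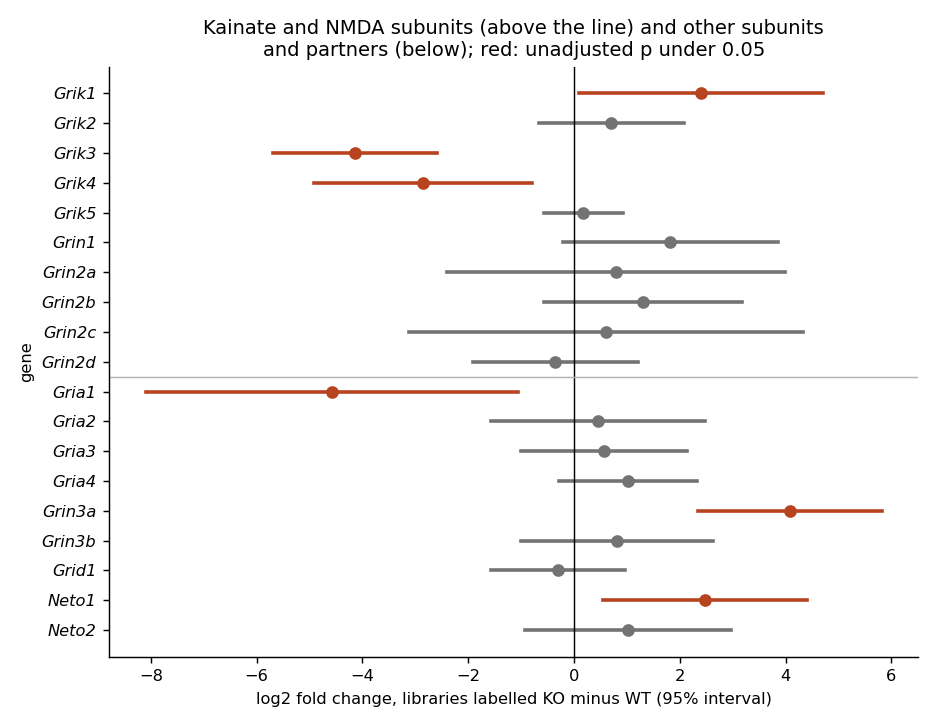
Log2 fold change between the labels, with 95% intervals from limma, of the kainate and NMDA subunit genes (above the line) and of other ionotropic glutamate receptor subunits and kainate receptor partners (below the line). The vertical line marks no difference, and intervals in red belong to genes with an unadjusted p under 0.05. The interval of Grik3 runs from -5.69 to -2.60 and that of Grin3a from 2.35 to 5.81.

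Among the other ionotropic glutamate receptor genes and the kainate receptor partners, 3 of 10 were higher and 1 was lower in the KO-labelled libraries at an unadjusted p under 0.05, and 0 of 10 at an adjusted p under 0.05 (limma). Grin3a, which encodes GluN3A, an NMDA receptor subunit that binds glycine and lowers calcium entry when built in, had 9.60 and 30.3 normalized counts in WT against 383 and 247 in the KO-labelled libraries. The groups did not overlap, and the lower library labelled KO was 8.14-fold above the higher WT library. Its log2 fold change was 4.08 (standard error 0.69, unadjusted p = 0.0015, adjusted p = 0.148 from limma), and DESeq2 gave 3.97 with an adjusted p of 3.13e-06. With each library left out it lay between 3.30 and 4.86. The level of Grin3a relative to the summed level of the 5 NMDA genes above was 0.0858 and 0.32 in WT against 1.66 and 2.01 in the KO-labelled libraries, as FPKM. Grin3a was thus below their sum in both WT libraries and above it in both KO-labelled libraries, while Grin3b, which encodes GluN3B, overlapped between the labels (21.3 and 14.7 against 20.3 and 49.6 normalized counts). Gria1, the AMPA receptor subunit of interest in the study, had 897 and 1803 normalized counts in WT against 240 and 10.8 in the KO-labelled libraries (log2 fold change -4.58, standard error 1.40, unadjusted p = 0.0198, adjusted p = 0.286 from limma), and DESeq2 called it as lower (log2 fold change -3.43, adjusted p = 0.0264). The spread between the KO-labelled libraries was larger for Gria1 than for Grik3 (22.2-fold against 2.80-fold).

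Neto1 and Neto2 encode partner proteins that slow the kainate receptor and raise its response. Neto1 was at 0 in both WT libraries and had 3.21 and 6.31 normalized counts in the KO-labelled libraries. The mean of the KO-labelled libraries was 1.60-fold the mean floor of 3 reads in WT. Labelled KO replicate 1, with 3 reads, was itself at that floor. The unadjusted p was 0.0208 (adjusted p = 0.289) in limma and 0.131 in DESeq2. Neto1 is among the genes counted as higher above. It passed the minimum mean only through the KO-labelled libraries, so its limma call gives no support for a change. Neto2 was far more abundant, with 1686 and 863 normalized counts in WT against 1148 and 5216 in the KO-labelled libraries, and its groups overlapped. The median log2 fold change of the 10 genes was 0.91, or 0.74 with Neto1 set to its ratio to the floor.

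Genes around the receptors were described from 4 further lists. Of 12 tested genes for the synthesis and transport of the co-agonists glycine and D-serine, 1 was higher and 0 were lower at an unadjusted p under 0.05. The gene was Phgdh, the first enzyme of serine synthesis, with 1535 and 2726 normalized counts in WT against 3870 and 6608 in the KO-labelled libraries (log2 fold change 1.31, standard error 0.44, unadjusted p = 0.0276, adjusted p = 0.314 from limma). Srr, the enzyme that makes D-serine, had 1102 and 1156 in WT against 1181 and 383 in the KO-labelled libraries, and its groups overlapped. Gldc of the glycine cleavage system had the highest FPKM of the list over the 4 libraries, although Phgdh was higher in the mean of the KO-labelled libraries. The normalized counts of Gldc were 9132 and 3832 in WT against 9662 and 1670 in the KO-labelled libraries, also with overlap. Slc1a5, a neutral amino acid transporter, had the largest fold change of the list (-2.00, unadjusted p = 0.106, adjusted p = 0.457 from limma). Its median log2 fold change was 0.32.

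Of 25 tested genes for scaffolds and signalling partners at NMDA receptors, 1 was higher and 3 were lower at an unadjusted p under 0.05. Shank1 and Shank2, scaffold proteins below the synaptic membrane, were at 141 and 92.9 against 27.8 and 37.0 normalized counts and at 662 and 636 against 386 and 124, WT before labelled KO. Nos1, the nitric oxide synthase that is bound to NMDA receptors in neurons, was at 23.5 and 23.9 against 6.42 and 7.21. Camk2g, a subunit of a calcium-dependent kinase, was higher, at 1658 and 1778 against 2546 and 3161. In each of these 4 genes the groups did not overlap, and the adjusted p from limma was 0.275, 0.353, 0.364 and 0.361. Camk2a had the largest fold change of the list (-2.91), with 1687 and 3055 in WT against 1154 and 78.4 in the KO-labelled libraries, but did not pass (unadjusted p = 0.0616, adjusted p = 0.389 from limma). The calmodulin genes Calm3 and Calm2 were the most abundant and did not pass. Over the list the log2 fold change had a median of 0.10.

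Of 14 tested genes for receptor trafficking and assembly, 1 was higher and 1 was lower at an unadjusted p under 0.05. Grip1, which holds AMPA and kainate receptors through a PDZ domain, had 132 and 154 normalized counts in WT against 370 and 565 in the KO-labelled libraries, and DESeq2 called it (adjusted p = 0.0165), with an adjusted p of 0.217 from limma. Kif17, the motor that carries Grin2b protein along dendrites, had 122 and 124 in WT against 55.7 and 13.5 in the KO-labelled libraries (adjusted p = 0.345 from limma). Ap2m1 and Ap2b1, the most abundant genes of this list, encode parts of the endocytic adaptor and did not pass. Over the list the log2 fold change had a median of 0.10.

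Of 10 genes of the RE1 silencing complex, which represses neuronal genes in other cells, 1 was higher and 1 was lower at an unadjusted p under 0.05. Rest itself, the factor that binds RE1, had 1160 and 1258 normalized counts in WT against 1039 and 1688 in the KO-labelled libraries, and its groups overlapped. Rcor2, a corepressor of the complex, had 133 and 153 in WT against 22.5 and 21.6 in the KO-labelled libraries, without overlap (log2 fold change -2.64, standard error 0.50, adjusted p = 0.165 from limma, 0.000475 from DESeq2). Hdac2, a histone deacetylase, had 1212 and 1307 in WT against 1894 and 2404 in the KO-labelled libraries (adjusted p = 0.357 from limma). Among the 10 genes the median log2 fold change was 0.05. The most abundant genes of this list were Hdac1 and Ehmt2, and neither passed. Over these 5 lists, 13 of 71 tested genes (18.3%) had an unadjusted p under 0.05 in limma, 7 higher and 6 lower, beside 13.7% of all genes tested. Under quantile normalization the number was 9 of 71, beside 2907 of all 22094 genes tested. In DESeq2 it was 9 of 71, beside 2775 of 22094. Under these 2 settings the share of list genes was close to that of all genes.

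**Figure D4:**
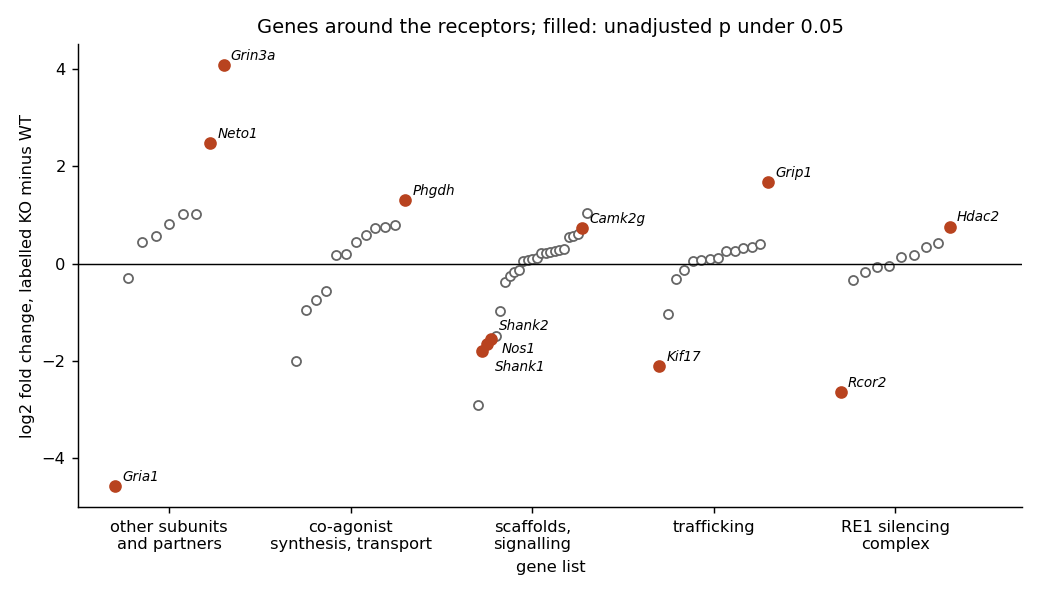
Log2 fold change between the labels of tested genes of 5 lists around the receptors, 1 point per gene. Filled points have an unadjusted p under 0.05 from limma, with Grin3a the highest at 4.08 and Gria1 the lowest at -4.58.

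Markers of other cells were counted in the same way. Of 12 microglial markers, 10 were lower and 0 higher in the KO-labelled libraries at an unadjusted p under 0.05, and their summed level was 76.2 and 130 FPKM in WT against 26.4 and 13.0 in the KO-labelled libraries. P2ry12 was at 0 in labelled KO replicate 1 and passed the minimum mean only through the WT libraries. Of 14 tested neuronal markers, 2 were higher (Dcx and Tubb3) and 1 was lower (Gad1), with a sum of 22.1 and 26.9 FPKM in WT against 31.0 and 35.6 in the KO-labelled libraries, where Stmn2 was the most abundant. Dcx passed the minimum mean only through the KO-labelled libraries. Snap25 and Nefl were at 0 in both WT libraries and at 1.07 and 2.70 (Snap25) and 0 and 10.8 (Nefl) normalized counts in the KO-labelled libraries. Other neuronal markers were present in WT. Map2 (3440 and 1892 against 2315 and 2779) and Syn1 (92.8 and 179 against 118 and 252) overlapped between the labels. Syt1 (16.0 and 14.7 against 23.5 and 107) was higher in both KO-labelled libraries. Of 13 oligodendrocyte lineage markers, 1 was lower (Cspg4, at 330 and 413 normalized counts in WT against 39.6 and 128 in the KO-labelled libraries) and 0 were higher, and the sum was 217 and 324 FPKM in WT against 431 and 244 in the KO-labelled libraries. Its most abundant gene was Olig1, and Sox10 was at 0 in WT replicate 1, Mog at 0 in labelled KO replicate 1, Mag at 0 in labelled KO replicate 2 and Bcas1 at 0 in WT replicate 1 and labelled KO replicate 1. Of 8 markers of neural progenitors and cycling cells, 4 were higher (Nes, Mki67, Top2a and Ccnb1) and 0 lower, and the sum was 1203 and 1558 FPKM in WT against 1698 and 1696 in the KO-labelled libraries, with Vim the most abundant. Of 8 tested meningeal, mural and endothelial markers, 1 was higher (Col1a2) and 2 were lower (Dcn and Rgs5), the sum was 21.6 and 28.7 FPKM in WT against 26.4 and 17.2 in the KO-labelled libraries, and Pdgfrb was the most abundant. Of the 10 astrocyte markers, 2 were lower (Slc1a2 and Sox9) and 0 were higher. The part of any of these cells in the values of Grik3, Grik4, Grik1 or Grin3a was not tested.

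The genes most like the leading subunits over the 4 libraries were found by the root mean square difference of log2 values centred on the mean of each gene, among 12867 genes with a mean of at least 50. For Grik5 they were Brap, Rnf216 and Pam16, at 0.00609, 0.0106 and 0.0129, and 2332 genes came within 0.2 of it. The flat pattern of Grik5 was therefore shared by many genes. For Grin2b, of the 5 NMDA genes the one with the highest mean FPKM over the 4 libraries, although not in WT, where Grin2d had the higher mean, they were Gm30373, H60b and Rpl17-ps10, at 0.114, 0.273 and 0.281, and only Gm30373 came within 0.2. Likeness over 4 libraries is a description and carries no test.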

How the data were processed

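RNA-seq of 4 primary astrocyte libraries was analysed, 2 labelled WT and 2 labelled KO, with groups and replicate numbers from the sample titles. Paired-end reads were filtered and mapped to mm10 by the authors. The counting program and annotation release are not given in the sources used here. For each gene and library the authors deposited a signal that is named FPKM but equals a read count divided by a size factor (0.937 and 1.09 in WT, 0.934 and 1.11 in KO). Of the values, 100% were whole multiples of 1 read within 0.01 read, so whole reads were recovered. The authors also deposited gene lengths, group means, log2 fold changes and p-values, of which only the lengths were used. The planned limma test, chosen for FPKM, was run on these normalized counts.

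limma 3.58.1 (lmFit, eBayes with a variance trend, R 4.3.3) was run on log2(normalized count + 1) over the 22094 genes whose mean reached 1, with Benjamini-Hochberg adjustment. Fold changes of low genes depend on the pseudocount of this scale. edgeR 4.0.16 (quasi-likelihood) and DESeq2 1.42.0 took the recovered reads and called 0 and 1088 genes at an adjusted p under 0.05. FPKM was computed from recovered reads, the deposited lengths and the reads on genes. Positions were taken from the deposited table and overlaps from GENCODE M21 on GRCm38, with the same start and end for all 10 genes. Upstream windows came from RefSeq (GRCm38.p6). Named genes were the 10 subunits, Tet1, Xist, 4 Y-linked genes and, per list, those with an unadjusted p under 0.05, else the 2 most abundant per length and the 2 with the largest fold change, and the 3 genes most like each leading subunit. Other genes named were chosen after their values were seen, Grin3b, Srr and Rest among them. Results of 2 list genes are not reported here, although list counts and sums include them. The 10 genes, the lists and the tests were chosen with earlier results of these data known. Alternatives were other pseudocounts, filters and scalings, no variance trend, a replicate block, each library left out, edgeR and DESeq2, and those of Grin3a were added after seeing the data.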

Additional observations from a re-analysis of the deposited data

How the results depend on the processing

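The number of subunit genes at an unadjusted p under 0.05 was 1 to 3 with each library left out and 2 to 4 under the other settings, and Grik3 was among them in all 14 alternatives. With a library left out, 1 label has a lone library that is assumed to vary like the pair of the other label, so these p-values say little about stability. At an adjusted p under 0.05 the number was 0 in limma, in edgeR and in limma with any library left out, and 2 in DESeq2 (Grik3 and Grik4). The median log2 fold change of the 10 genes was 1.03 under quantile normalization and 0.19 to 0.71 with each library left out. The number of genes without overlap was 6 to 9 with each library left out, where fewer samples make separation easier, and 5 to 6 under other scalings. The number of list genes at an unadjusted p under 0.05 was 2 to 20 with each library left out, 20 without labelled KO replicate 1 and 2 without WT replicate 2. The log2 fold change of Tet1 was -0.05 to 1.36 with each library left out and turned negative (-0.0508) without labelled KO replicate 2. Signs also turned for Grik5 (-0.0147 to 0.37 with each library left out), Grin2a (-0.88 to 2.47), Grin2c (-1.52 to 2.74) and Grin2d (0.22 under quantile normalization), and the cause was not tested. Grin1 passed an unadjusted p of 0.05 under quantile normalization (adjusted p = 0.336) and without a variance trend (adjusted p = 0.333) in limma. With the replicate number as a block, 3 subunit genes (Grik1, Grik3 and Grik4), 11 list genes and 2583 of all genes had an unadjusted p under 0.05, 0 genes had an adjusted p under 0.05, and the block changed no call of a subunit gene. The deviations of same-numbered libraries correlated at -0.08 over 22094 genes, so the numbers were not taken as a pairing. Over all genes, 1004 were higher and 2028 lower at an unadjusted p under 0.05, but 1417 and 1490 under quantile normalization, which moved the median of all genes from -0.07 to 0.08. The number at an unadjusted p under 0.05 over all genes was 1029 to 4925 with each library left out. Depth limits Grik1, Grin1, Grin2a and Grin2c, each with 10 or fewer reads in at least 3 of the 4 libraries, and a filter at a mean of 5 leaves out Grik1 and Grin2a.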
